A study of Homo sapiens with 12 samples.

Results

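The comparison described here asks what the compound SFN adds to cells that already receive the compound ZA. It sets the 3 SFN+ZA libraries against the 3 ZA libraries of MDA-MB-231 cells, an established human line of triple-negative breast cancer and a common model of metastasis. Its members are all genes that passed a filter on low counts in these 6 libraries, 14629 of the 57905 genes in the deposited table. The 6 libraries are part of 12, in 4 groups of 3. SFN+ZA cells received 1 µM SFN with 0.5 µM ZA, SFN cells 1 µM SFN, ZA cells 0.5 µM ZA, and vehicle cells DMSO and water, each for 48 h. All 4 groups are the same cell line, and SFN+ZA and ZA share the ZA dose and differ in SFN alone.

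SFN is a common abbreviation of sulforaphane and ZA of zoledronic acid. Neither name is written out in the labels, and SFN here is the treatment, not the gene of that symbol. Sulforaphane is an isothiocyanate that modifies KEAP1, the adaptor that marks the transcription factor NRF2 for degradation. NRF2 then accumulates, pairs with small MAF proteins and binds antioxidant response elements of genes for glutathione synthesis, quinone reduction, NADPH supply, iron storage and drug export. Zoledronic acid is a bisphosphonate that blocks farnesyl diphosphate synthase in the mevalonate pathway, which makes cholesterol and the lipid anchors of small GTPases.

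No gene passed the test of adding SFN to ZA. With edgeR's quasi-likelihood test on the 6 libraries, 0 of 14629 genes passed a Benjamini-Hochberg adjusted p of 0.05 in either direction, a share of 0% higher and 0% lower, and the lowest adjusted p was 0.65. At an unadjusted p under 0.05 there were 494 genes higher in SFN+ZA (3.38%) and 337 lower (2.3%). In 976 genes all 3 SFN+ZA libraries lay above all 3 ZA libraries (6.67%), and in 854 they lay below (5.84%). DESeq2's Wald test on the same counts called 13 genes, 5 higher and 8 lower, and edgeR without the low-count filter called 75, 44 higher and 31 lower. With an offset for the GC content of transcripts, edgeR called 4 genes (0.0273%), all higher: SLC7A11, PABPC1L, OGT and ATM. Dishes were plated in triplicate and no label calls them separate cultures, so each p here reflects spread among dishes that may be purely technical.

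The 6 libraries held between 15.9 M and 25.4 M (mega) counts. Levels are given in CPM, counts scaled to a common library size with edgeR's TMM factors, and are not divided by gene length. On the first principal component, which held 42.6% of the variance, ZA 1 lay at 42.5 and the other 5 libraries between -22.3 and 4.2. Each library's values tracked the GC content of genes to a different degree: Spearman's rho across genes of a library's deviation from the median of the 6 was 0.554, -0.392 and -0.158 in SFN+ZA and -0.623, 0.144 and 0.466 in ZA, so the groups overlapped. Vehicle 2 and SFN 2, which stand apart in the whole set, take no part in the comparison. Several defining genes of the line were as its label says. VIM lay between 937 and 1020 CPM in SFN+ZA and between 945 and 1170 CPM in ZA. The oestrogen receptor gene ESR1 reached at most 0.124 CPM, and PGR had no count. CDH1 lay between 1.34 and 1.99 CPM in SFN+ZA and between 1.70 and 2.60 CPM in ZA. ERBB2 was not near 0, at 94.2 to 128 CPM in SFN+ZA and 85.7 to 123 CPM in ZA. Nor were luminal and epithelial genes as sets. The 11 luminal genes listed summed to 1150 to 1300 CPM in SFN+ZA and 1090 to 1380 CPM in ZA. The 21 epithelial genes listed summed to 2650 to 2940 and 2540 to 3090 CPM, and the 23 mesenchymal genes to 7020 to 7380 and 7100 to 7520 CPM. The 12 fibroblast and endothelial genes summed to 59.5 to 61.7 and 57.3 to 66.6 CPM. In all, the 14 blood and immune genes summed to 4.35 to 5.95 CPM in SFN+ZA and 4.32 to 4.85 CPM in ZA, with HBB, MS4A1 and CD3E among those at 0.

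The short stretches below are shown because NRF2 is the factor that SFN is best known to act through, and they let the genes that hold its element near their start be set beside their values. They come from RefSeq promoters of GRCh38.p14 (250 bases before to 50 after a gene's start), 5′ to 3′ on the gene's strand, and the capitals mark the core TGACNNNGC or its reverse complement. Of the 37 NRF2 target genes tested, 28 matched a promoter, and 12 of those 28 (42.9%) held the core, on 13 of 38 promoters (34.2%), against 13.3% of all 35116 promoters. The 4 shown are GCLM (chr1:93909441-93909479, minus strand), TXNRD1 (chr12:104286915-104286953, plus strand), ME1 (chr6:83431165-83431203, minus strand) and MT2A (chr16:56608465-56608503, plus strand).
GCLM: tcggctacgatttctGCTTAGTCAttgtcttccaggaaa
TXNRD1: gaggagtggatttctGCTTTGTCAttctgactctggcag
ME1: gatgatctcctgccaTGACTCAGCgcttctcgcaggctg
MT2A: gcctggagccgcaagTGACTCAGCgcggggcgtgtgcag
ME1 and MT2A carry the same 9 letters, as does SLC3A2, whose stretch is not shown. Their log2 fold changes were 0.07 ± 0.13 (SE) for ME1, -0.45 ± 0.11 for MT2A and -0.02 ± 0.09 for SLC3A2. Those of ME1 and SLC3A2 were smaller than their SE. A match to the core describes the letters of the window and nothing about binding.

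NRF2 target genes lay slightly to the higher side with SFN on top of ZA. The 37 tested members of a list of 40 had a median log2 fold change of 0.07, against -0.01 for all genes, and 25 were above 0 (67.6%, against 47.9% of all genes). Leaving out single libraries moved the median between 0.05 and 0.13, the highest value being that without ZA 3. None passed the adjusted test, and 6 were higher and 1 lower at an unadjusted p under 0.05 (3.38% and 2.3% of all genes). The groups did not overlap in 7 members higher in SFN+ZA (18.9%, against 6.67% of all genes) and in 2 lower (5.41%, against 5.84%). The largest log2 fold changes of the list were 0.73 for AKR1C1, a carbonyl-reducing enzyme, and 0.61 for ABCC2, a drug exporter, both at low levels with groups that overlapped. The list was chosen with the known action of SFN and earlier results of these data in mind.

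SLC7A11 (ENSG00000151012, GRCh37/hg19 chromosome 4, 139085251 to 139163503) encodes the light chain of the cystine/glutamate exchanger, which brings in cystine for glutathione. It measured 120.7, 146.9 and 141.6 CPM in SFN+ZA and 125.0, 94.81 and 88.17 CPM in ZA. SFN+ZA 1 lay below ZA 1, and the other pairs of libraries did not cross. Its log2 fold change was 0.41 ± 0.14 (SE; edgeR adjusted p = 0.798). With the GC offset it was 0.48 ± 0.06 and passed (edgeR quasi-likelihood, adjusted p = 0.0206). SLC7A11 overlaps SLC7A11-AS1 on the other strand, and no source used here gives the strand setting of the counts, so its count is uncertain.

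NQO1, the quinone reductase that is the standard readout of NRF2, measured 274.8, 299.0 and 289.2 CPM in SFN+ZA and 250.9, 246.8 and 236.8 CPM in ZA. The groups did not overlap, but the log2 fold change was only 0.23 ± 0.08 (edgeR adjusted p = 0.815). Glutathione synthesis has 2 subunits in its first enzyme: the catalytic GCLC measured 39.35, 42.72 and 37.67 CPM in SFN+ZA and 31.67, 32.95 and 31.61 CPM in ZA, without overlap, at 0.32 ± 0.10. The modifier subunit GCLM measured 154.0, 188.1 and 174.1 CPM in SFN+ZA and 186.6, 153.0 and 144.8 CPM in ZA, with overlap, at 0.09 ± 0.12. TXNRD1, the thioredoxin reductase, differed by 0.06 ± 0.07. SRXN1, which repairs oxidised peroxiredoxins, lay between 0.571 and 2.46 CPM in SFN+ZA and between 0.890 and 2.03 CPM in ZA and differed by 0.03 ± 0.51.

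Both ferritin chains, which store iron, were higher in every SFN+ZA library than in any ZA library. The light chain FTL measured 2710, 2920 and 2856 CPM in SFN+ZA and 2216, 2427 and 2309 CPM in ZA, a log2 fold change of 0.29 ± 0.08 (edgeR unadjusted p = 0.00377, adjusted p = 0.732). The heavy chain FTH1 measured 821.9, 840.0 and 825.1 CPM in SFN+ZA and 436.4, 692.9 and 662.5 CPM in ZA, at 0.47 ± 0.15. ZA 1 was the lowest of all 6 libraries for FTH1 by a wide margin. The exporter of conjugated drugs and bile salts ABCC3 measured 168.2, 129.8 and 155.4 CPM in SFN+ZA and 100.7, 115.9 and 119.4 CPM in ZA, again without overlap, at 0.43 ± 0.12. FTL, FTH1, GCLC and ABCC3 were picked for the text after their values were seen.

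HMOX1, the haem-degrading enzyme that many stresses switch on, did not separate the groups. It measured 19.62, 17.25 and 14.76 CPM in SFN+ZA and 9.947, 15.38 and 19.70 CPM in ZA, so the highest value was ZA 3. Its log2 fold change was 0.20 ± 0.22, and without ZA 1 it was -0.01. The metallothionein MT2A, which binds zinc and copper, went the other way: 560.3, 510.9 and 527.3 CPM in SFN+ZA and 841.6, 630.4 and 714.2 CPM in ZA, without overlap. Its log2 fold change was -0.45 ± 0.11 (edgeR unadjusted p = 0.00243, adjusted p = 0.732), the lowest of the 37 members, and its relative MT1X was next at -0.30.

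**Figure D1:**
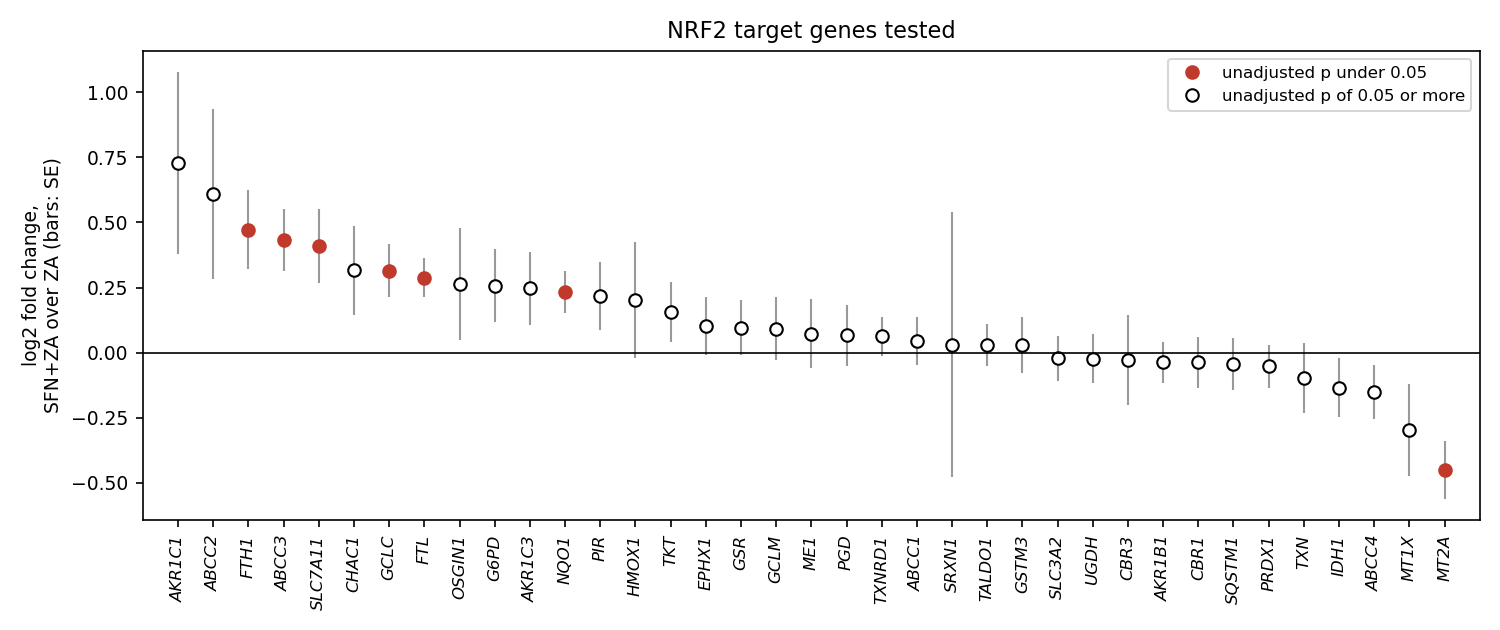
Log2 fold change of SFN+ZA over ZA for the 37 NRF2 target genes tested (vertical axis, bars: SE of the 6-library fit), ordered from high to low. Filled points have an unadjusted p under 0.05: 6 lie above 0 and MT2A lies below; none passed the adjusted test.

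Outside the NRF2 list, the 10 protein-coding genes with the lowest p in each direction all had groups that did not overlap, which the low p favours, and none passed the adjusted test. On the higher side, OGT encodes the enzyme that attaches GlcNAc to nuclear and cytosolic proteins. It measured 327.4, 347.2 and 374.7 CPM in SFN+ZA and 278.9, 265.2 and 235.4 CPM in ZA, so every SFN+ZA library lay above every ZA library. Its log2 fold change was 0.43 ± 0.10, and 0.46 ± 0.06 with the GC offset, where it passed (edgeR adjusted p = 0.0206). PABPC1L, a poly(A)-binding protein known mainly from oocytes, measured 79.13, 64.09 and 77.12 CPM in SFN+ZA and 38.01, 51.72 and 46.37 CPM in ZA. The groups were apart, with a log2 fold change of 0.69 ± 0.14, and it passed with the GC offset at 0.66 ± 0.08 (edgeR adjusted p = 0.0206). UBR4, an E3 ubiquitin ligase of the N-degron pathway, measured 301.5, 295.3 and 310.5 CPM in SFN+ZA and 237.8, 246.6 and 232.8 CPM in ZA, a difference of 0.34 ± 0.08. Both UBR4 groups were narrow, and the gap between them was larger than either.

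The other 7 on the higher side ranged from 0.50 for ZBTB37, a zinc finger gene next to GAS5, to 1.30 for ILK, the integrin-linked kinase. ILK stood at only 2.340, 2.799 and 1.914 CPM in SFN+ZA and 0.785, 0.959 and 1.140 CPM in ZA. That level is low, and ILK overlaps TAF10 on the other strand, so its count is uncertain. Between these 2 lay TTLL3, a tubulin glycylase (0.55), NPIPB5 (0.62), THBS3, a thrombospondin (0.63), KCND1, a potassium channel (0.70), and AL627309.1 (0.84). NPIPB5 has near-identical relatives on chromosome 16 and overlaps SMG1P1, so reads may be split among them. THBS3, TTLL3, PABPC1L and ZBTB37 each overlap a tested gene on the other strand.

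On the lower side, 4 of the 10 genes encode ribosomal proteins: RPS29, RPS28, RPS21 and RPL37A. RPS29, of the small subunit, had the lowest p of all genes and measured 66.17, 85.85 and 72.49 CPM in SFN+ZA and 133.5, 114.0 and 140.6 CPM in ZA. The groups were well apart, with a log2 fold change of -0.79 ± 0.12 (edgeR unadjusted p = 0.000107, adjusted p = 0.65). It overlaps RN7SL1 on the other strand, and ribosomal protein genes have many processed copies, so these counts are uncertain. RPS28 differed by -0.55 ± 0.11, RPS21 by -0.53 ± 0.11 and RPL37A by -0.46 ± 0.11.

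ID3, a dominant-negative partner of basic helix-loop-helix factors and a target of BMP signalling, measured 5.699, 7.882 and 5.928 CPM in SFN+ZA and 9.737, 12.82 and 14.06 CPM in ZA. All SFN+ZA libraries lay below all ZA libraries, with a log2 fold change of -0.90 ± 0.19 (edgeR adjusted p = 0.732). DPP4, the cell-surface dipeptidase CD26, measured 3.120, 2.913 and 2.655 CPM in SFN+ZA and 6.125, 4.792 and 5.004 CPM in ZA, a difference of -0.87 ± 0.18. SEMA5A, an axon guidance ligand, differed by -0.75 ± 0.17, CPE, a prohormone-processing carboxypeptidase, by -0.50 ± 0.11, and MATN2, a matrix adaptor protein, by -0.43 ± 0.10. MATN2 overlaps RPL30 on the other strand.

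GSTT2B, a theta-class glutathione transferase, had the largest fold on the lower side, at a very low level. It measured 0.600, 0.400 and 0.865 CPM in SFN+ZA and 2.827, 2.436 and 2.090 CPM in ZA, a log2 fold change of -1.98 ± 0.33. Its near-identical neighbour GSTT2 had a log2 fold change of 0.40 ± 0.23, so reads may be split between the copies and the GSTT2B value is uncertain.

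**Figure D2:**
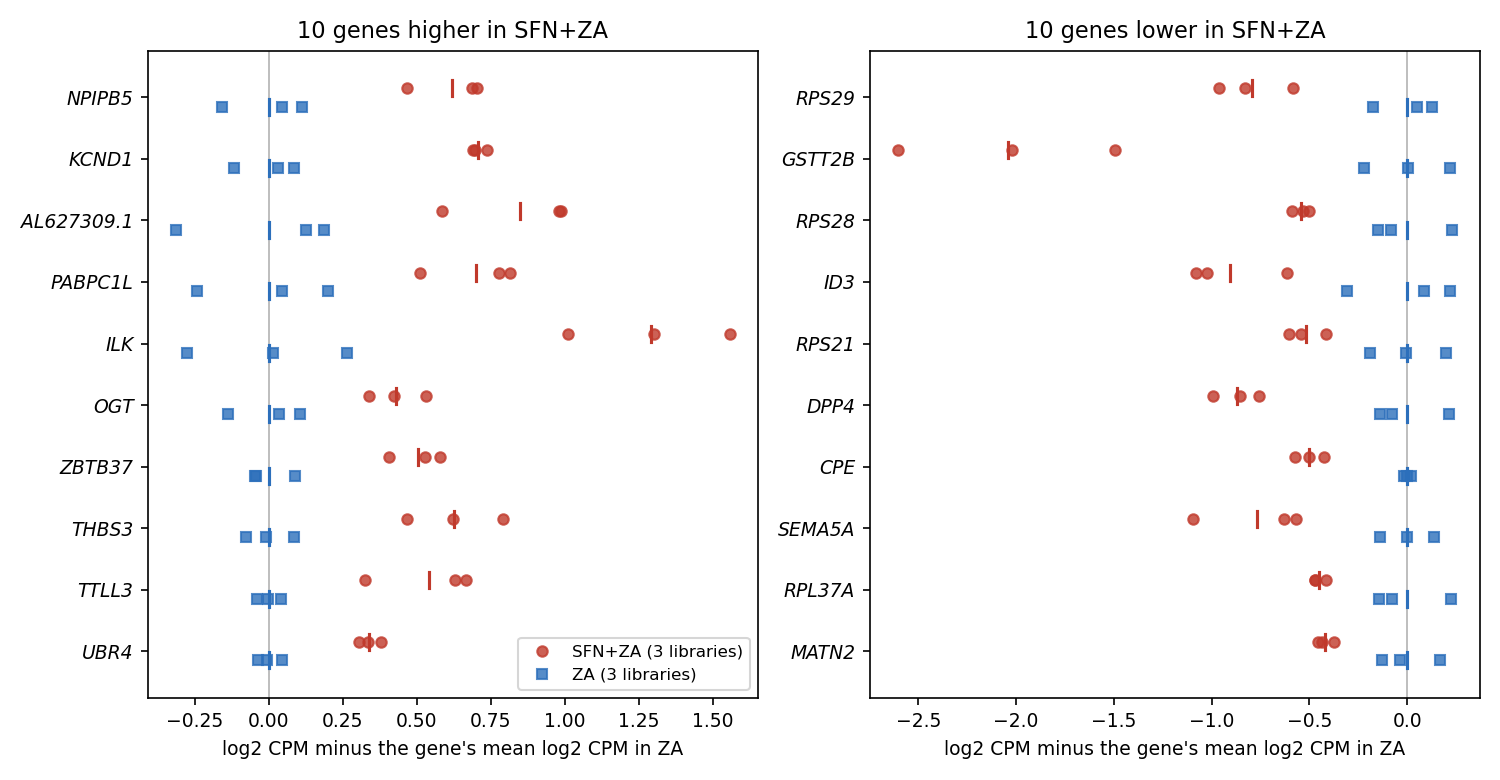
Log2 CPM of each library minus the gene's mean log2 CPM in ZA (horizontal axis), for the 10 protein-coding genes with the lowest p on the higher side (left) and on the lower side (right). Red circles are SFN+ZA, blue squares ZA, ticks the group means; in all 20 genes the groups do not overlap, and none passed the adjusted test.

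The authors' deposited table for the same pair of groups listed 11 of 25151 genes with an adjusted p under 0.05, 4 higher and 7 lower. They were AL627309.1, PABPC1L, NPIPB5 and the mitochondrial leucine tRNA gene MT-TL1 on the higher side, and RPS29, RPS28, RPS21, GSTT2B, the pseudogenes EEF1A1P6 and TUBBP1, and the 28S ribosomal RNA gene RNA28S5 on the lower side. All 11 were among the 17 genes with the lowest p in the 6-library edgeR test, where none passed. RNA28S5 took 0.519%, 0.491% and 0.337% of the counts in SFN+ZA and 0.713%, 1.06% and 0.945% in ZA, so its groups did not overlap. Its part in the values of the ribosomal protein genes and other short RNAs was not tested.

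The integrated stress response, a programme driven by ATF4 that raises amino acid supply and tRNA charging, stood on the higher side more often than most lists. Of its 25 tested genes 22 were above 0 (88%, against 47.9% of all genes), with a median of 0.16. Only 2 were higher and 0 lower at an unadjusted p under 0.05 (3.38% and 2.3% of all genes). PHGDH, the first enzyme of serine synthesis, had the lowest p and measured 21.60, 23.08 and 21.92 CPM in SFN+ZA and 17.01, 19.33 and 18.94 CPM in ZA. Its groups did not overlap (log2 fold change 0.27 ± 0.11, edgeR adjusted p = 0.855). CEBPB, a transcription factor of the same programme, measured 257.3, 234.6 and 221.5 CPM in SFN+ZA and 132.0, 207.7 and 208.4 CPM in ZA, with ZA 1 far below the rest. ATF4 differed by 0.17 ± 0.14 and its target DDIT3 by 0.21 ± 0.12. Leaving out single libraries moved the median of the list between 0.10 and 0.18.

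Interferon-stimulated genes, which interferons induce and which restrict viruses, lay mostly on the lower side. Of 35 tested, 8 were above 0 (22.9%, against 47.9% of all genes), with a median of -0.12, and 0 were higher and 5 lower at an unadjusted p under 0.05 (3.38% and 2.3% of all genes). The groups did not overlap in 10 members lower in SFN+ZA (28.6%, against 5.84% of all genes) and in 0 higher. ISG15, a ubiquitin-like modifier, measured 86.03, 67.86 and 76.26 CPM in SFN+ZA and 89.10, 93.81 and 104.8 CPM in ZA. Its groups did not overlap, at -0.32 ± 0.11 (edgeR adjusted p = 0.828). IFIT2, an RNA-binding antiviral protein, measured 70.25, 69.68 and 70.95 CPM in SFN+ZA and 81.67, 80.19 and 84.18 CPM in ZA, at -0.22 ± 0.09. IRF9, a transcription factor of the same response, measured higher, at 0.58, with an unadjusted p of 0.172 in the edgeR fit. Of 18 MHC genes, which present antigens, 7 were above 0 (38.9%, against 47.9% of all genes). Their median of -0.09 moved between -0.15 without SFN+ZA 1 and -0.03 without ZA 3. The class II chain HLA-DRA measured 17.04, 17.93 and 18.96 CPM in SFN+ZA and 22.77, 22.16 and 23.37 CPM in ZA, without overlap (-0.34 ± 0.11). CIITA, the activator of class II genes, measured 27.96, 25.87 and 26.61 CPM in SFN+ZA and 21.04, 24.00 and 20.59 CPM in ZA, higher in every SFN+ZA library.

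**Figure D3:**
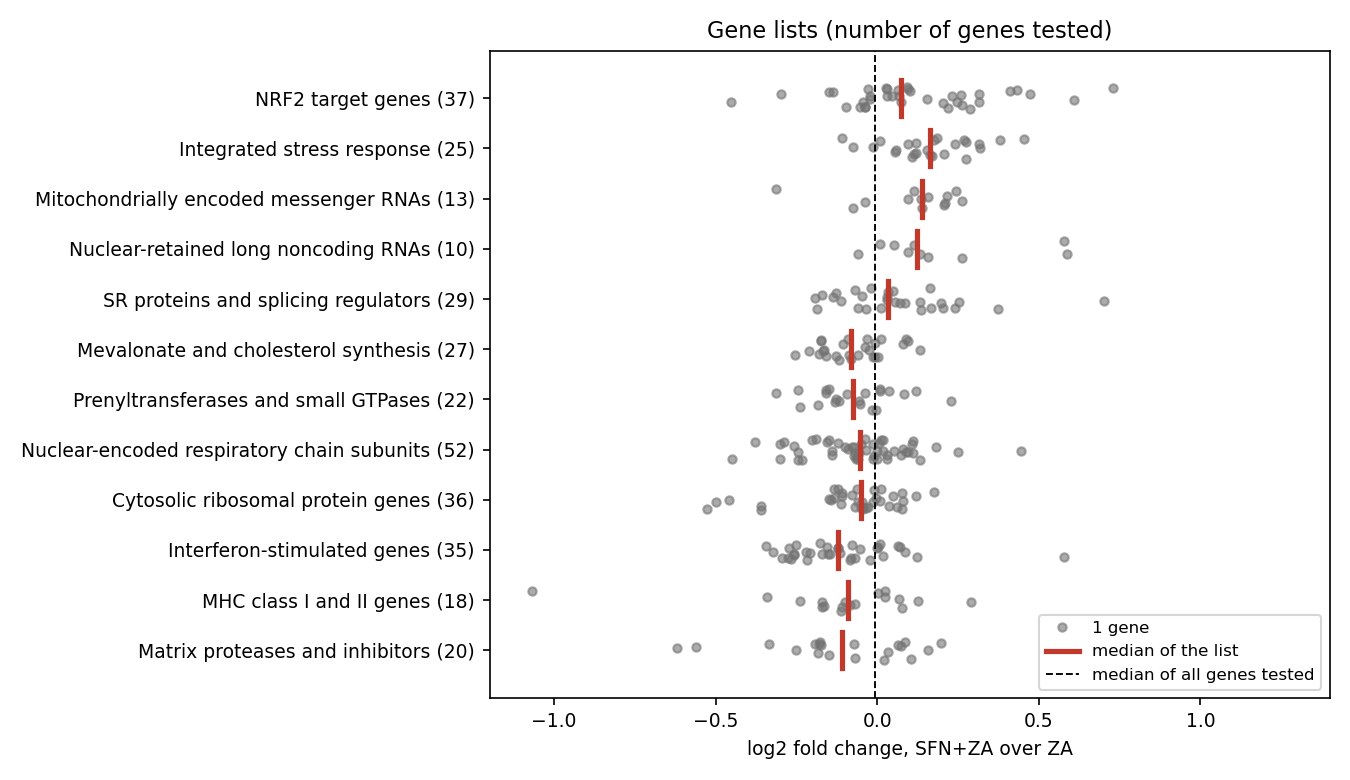
Log2 fold change of SFN+ZA over ZA (horizontal axis) for every tested gene of 12 lists, with the number tested in brackets. Grey points are genes, red ticks the median of the list and the dashed line the median of all 14629 genes (-0.01); most list medians lie within 0.15 of that line.

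Genes of the pathway that ZA blocks lay mostly on the lower side, by small differences. Of 27 mevalonate and cholesterol synthesis genes, 6 were above 0 (22.2%, against 47.9% of all genes). At an unadjusted p under 0.05, 0 were higher and 1 lower (3.38% and 2.3% of all genes). Groups were apart in 4 genes lower in SFN+ZA (14.8%, against 5.84% of all genes) and in 0 higher. The median was -0.08, and between -0.10 and -0.02 with single libraries left out, nearest to 0 without ZA 3. FDPS, the enzyme that ZA is known to inhibit, measured 102.2, 85.73 and 89.72 CPM in SFN+ZA and 79.89, 95.97 and 99.32 CPM in ZA, so the groups overlapped and the log2 fold change was 0.01 ± 0.12. HMGCS1, which makes HMG-CoA at an early step of the pathway, differed by -0.06 ± 0.11. RHOB, a small GTPase whose transcript is known to respond to loss of prenylation, measured 53.93, 54.20 and 51.06 CPM in SFN+ZA and 47.38, 54.27 and 59.41 CPM in ZA, and differed by -0.02 ± 0.11.

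Most respiratory chain messengers encoded in mitochondrial DNA measured higher, while those encoded in the nucleus had a median near 0. Of 13 mitochondrial messengers, 10 were above 0 (76.9%, against 47.9% of all genes) with a median of 0.14, and between 0.10 and 0.21 with single libraries left out. At an unadjusted p under 0.05, 3 were higher and 1 lower (3.38% and 2.3% of all genes). MT-CO1, a catalytic subunit of cytochrome c oxidase, measured 10190, 11100 and 11910 CPM in SFN+ZA and 9449, 9628 and 8616 CPM in ZA, without overlap (0.26 ± 0.08, edgeR adjusted p = 0.79). Of the 3 below 0, MT-ND6 stood at -0.08, MT-ND4L at -0.04 and MT-ND3 lowest at -0.31. MT-ND3 measured 740.3, 816.3 and 788.8 CPM in SFN+ZA and 863.3, 926.1 and 1127 CPM in ZA. All mitochondrial genes together took 4.69%, 5.00% and 5.30% of counts in SFN+ZA and 4.76%, 4.50% and 4.26% in ZA, so the shares overlapped. Of 52 respiratory chain subunits encoded in the nucleus, 19 were above 0 (36.5%, against 47.9% of all genes), with a median of -0.05 that turned to 0.02 without ZA 3. At an unadjusted p under 0.05, 0 were higher and 5 lower (3.38% and 2.3% of all genes). ATP5E, a small subunit of ATP synthase, measured 91.61, 94.59 and 94.10 CPM in SFN+ZA and 138.5, 107.6 and 136.6 CPM in ZA. Of the 36 cytosolic ribosomal protein genes of the list, which leaves out RPS28 and RPS29, 10 were above 0 (27.8%, against 47.9% of all genes). At an unadjusted p under 0.05, 0 were higher and 5 lower (3.38% and 2.3% of all genes). The median of the list was -0.05 and likewise turned to 0.03 without ZA 3.

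Among genes that bear on metastasis, none passed the adjusted test. DKK1, an inhibitor of WNT signalling that breast cancer cells secrete in bone, measured 301.7, 283.1 and 280.8 CPM in SFN+ZA and 379.4, 341.5 and 356.0 CPM in ZA. The groups did not overlap (-0.32 ± 0.08, edgeR unadjusted p = 0.00408, adjusted p = 0.732). Of the 16 bone metastasis regulators tested, 9 were above 0 (56.2%, against 47.9% of all genes), with a median of 0.04. At an unadjusted p under 0.05, 0 of them were higher and 1, DKK1, was lower (3.38% and 2.3% of all genes). TIMP3, an inhibitor of matrix proteases, measured 213.0, 207.2 and 210.7 CPM in SFN+ZA and 248.7, 245.9 and 256.1 CPM in ZA, also without overlap (-0.25 ± 0.08). Of 20 matrix protease and inhibitor genes, 8 were above 0 (40%, against 47.9% of all genes). At an unadjusted p under 0.05, 0 of these genes were higher and 3 lower (3.38% and 2.3% of all genes). Without overlap of the groups, 1 of them was higher in SFN+ZA and 5 were lower (25%, against 5.84% of all genes). Among 20 mesenchymal genes, 1 was higher and 0 lower at that level, and among 19 epithelial genes 0 were higher and 1, EPCAM, was lower (-0.28 ± 0.13). Of 24 BCL2 family and apoptosis genes, 28 mitosis genes and 30 DNA replication genes, 0 passed an unadjusted p of 0.05 in either direction. MKI67, the proliferation marker, measured 523.0, 599.9 and 592.0 CPM in SFN+ZA and 481.9, 539.5 and 482.3 CPM in ZA. Its groups overlapped, at 0.19 ± 0.09. The mitosis genes as a set leaned the other way: 8 of 28 were above 0 (28.6%, against 47.9% of all genes), with a median of -0.05.

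Several classes of noncoding genes had higher medians than protein-coding genes. The median log2 fold change was 0.15 over 574 antisense genes, 0.10 over 528 lincRNAs, 0.14 over 139 processed transcripts and -0.02 over 12506 protein-coding genes. The groups did not overlap in 15% of antisense genes on the higher side and in 2.26% on the lower side, against 6.67% and 5.84% of all genes. Over 707 pseudogenes the median was 0.05, and 54.6% were above 0, against 47.9% of all genes. Their groups did not overlap in like shares on both sides, 8.77% on the higher and 9.48% on the lower. Among 10 long noncoding RNAs of the nuclear list, 9 were above 0. NEAT1, the scaffold RNA of paraspeckles, measured 514.5, 326.7 and 442.6 CPM in SFN+ZA and 230.2, 292.5 and 337.9 CPM in ZA, with overlap of SFN+ZA 2 and ZA 3 (0.58 ± 0.18, edgeR adjusted p = 0.781). RUSC1-AS1, an antisense gene chosen after its value was seen, measured 7.559, 5.083 and 6.360 CPM in SFN+ZA and 3.769, 3.794 and 2.850 CPM in ZA, without overlap. Without a stated strand setting, reads of an antisense gene and of its partners (here RUSC1 and FDPS) cannot be told apart.

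Differences also tracked GC content. Across 14267 genes with a value, Spearman's rho of the log2 fold change with the GC content of transcripts was 0.248. With the GC offset, which removes each library's trend by construction, it was -0.003. In 5 bins of GC content with like numbers of genes, the median was -0.07, -0.04, -0.01, 0.02 and 0.05 from the lowest bin to the highest. The offset left the medians of the biotypes close to where they were, at 0.16 for antisense genes and -0.01 for protein-coding genes. It also left NRF2 target genes at 0.08, the integrated stress response at 0.15 and interferon-stimulated genes at -0.12. ATM, the DNA damage kinase, was the 1 gene called with the offset that no rule had named. It measured 121.4, 144.9 and 142.5 CPM in SFN+ZA and 130.6, 104.2 and 93.36 CPM in ZA, with overlap through ZA 1, and differed by 0.39 ± 0.05 with the offset (edgeR adjusted p = 0.0411). With an offset for GC content and length together it differed by 0.27 and did not pass (edgeR adjusted p = 0.122). ATM overlaps NPAT on the other strand.

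**Figure D4:**
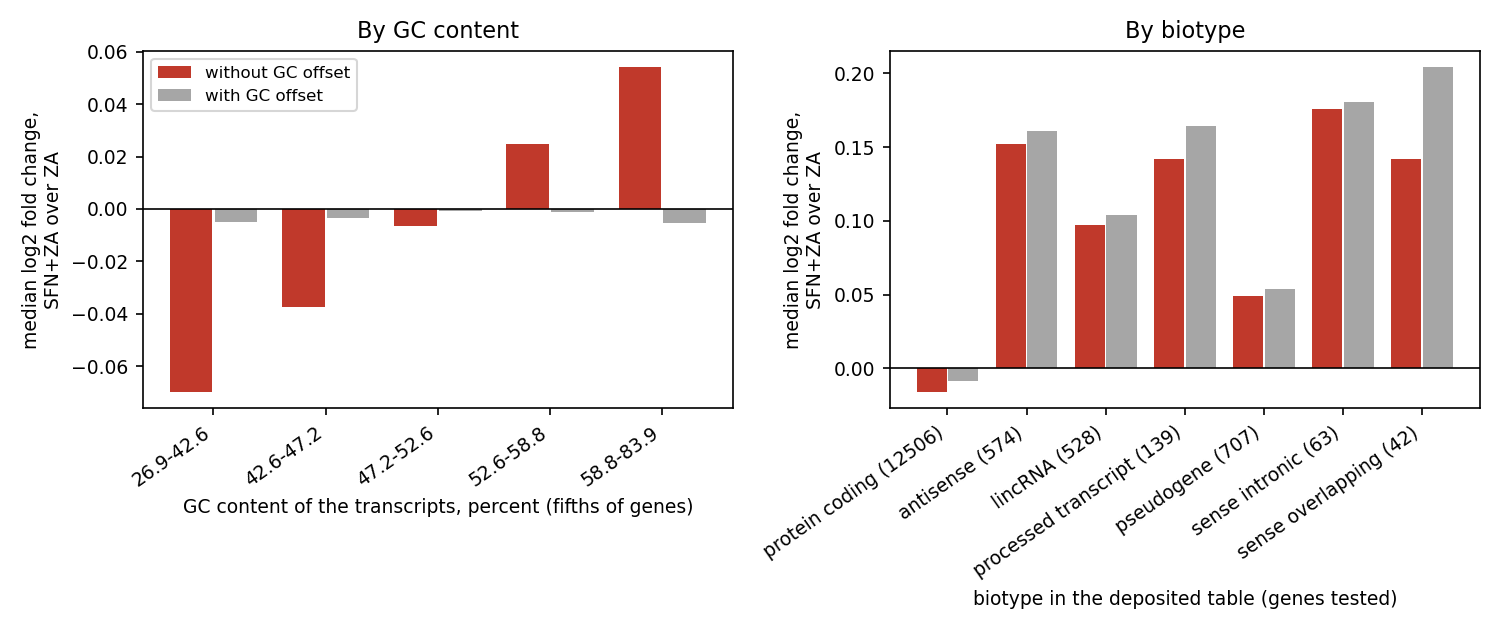
Median log2 fold change of SFN+ZA over ZA (vertical axes) in 5 bins of transcript GC content (left) and by biotype with the number of genes tested (right). Red bars are without and grey bars with the GC offset; the slope with GC content disappears with the offset, and the higher medians of antisense genes, lincRNAs and processed transcripts remain.

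The same dose of SFN was also given without ZA, in libraries that share no sample with the comparison above. Whether SFN acted differently on the 2 backgrounds was tested as the SFN+ZA minus ZA difference less the SFN minus vehicle difference. With edgeR on all 12 libraries, 0 of 15142 genes passed (0%), 257 had an unadjusted p under 0.05, and DESeq2 also called 0. Without vehicle 2 and SFN 2, which stand apart, 0 passed and 1036 had an unadjusted p under 0.05. These counts do not show that SFN acted alike in both settings.

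Side by side, on the 10-library fit for SFN against vehicle, the log2 fold change of SLC7A11 was 0.41 ± 0.14 with ZA and 0.55 ± 0.16 without it. That of NQO1 was 0.23 ± 0.08 with ZA and 0.25 ± 0.09 without it. OGT stood at 0.43 ± 0.10 with ZA, against 0.57 ± 0.11 without it, and ID3 at -0.90 ± 0.19 with ZA, against -1.08 ± 0.23 without it. Each of these 4, picked after their values were seen, had the same sign in 2 sets of libraries that share none. Of the 37 NRF2 target genes tested, 19 had the same sign in both, and of all 14627 genes 6668 did. FTH1 stood at 0.47 with ZA and -0.11 without it, and HMOX1 at 0.20 with ZA and -0.47 without it. With vehicle 2 and SFN 2 kept, OGT stood at 0.25 ± 0.18 for SFN against vehicle. Of the 10 genes named on the higher side, 9 were above 0 for SFN against vehicle, and of the 10 on the lower side 7 were below 0. With all 12 libraries these counts were 5 of 10 and 5 of 10, so they depend on leaving out vehicle 2 and SFN 2.

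Among all 494 genes higher at an unadjusted p under 0.05, 300 (60.7%) were above 0 for SFN against vehicle in the 10-library fit, against 50.3% of all genes, and of the 337 lower genes 203 (60.2%) were below 0, against 49.7% of all genes. With all 12 libraries the shares were 48.2% of the higher genes above 0, against 49.1% of all genes, and 56.4% of the lower genes below 0, against 50.9%, so the excess among the higher genes was not there. Over all genes the 2 differences had a Spearman's rho of -0.0477, given as a description. Their trends with GC content had opposite signs, at 0.248 with ZA and -0.499 without it. Among the named genes the widest contrast was GSTT2B, at -1.98 ± 0.33 with ZA and 1.82 ± 0.48 without it. The difference of -3.80 ± 0.60 in the 10-library fit did not pass (edgeR unadjusted p = 3.64e-05, adjusted p = 0.558). With all 12 libraries SFN against vehicle was 0.66 ± 0.62, and the difference was -2.63 ± 0.87 (edgeR unadjusted p = 0.0119, adjusted p = 0.901). MT2A stood at -0.45 ± 0.11 with ZA and 0.22 ± 0.15 without it, a difference that did not pass either (edgeR adjusted p = 0.593). With all 12 libraries MT2A was -0.24 ± 0.30 without ZA, so the opposite signs hold in the 10-library fit only.

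**Figure D5:**
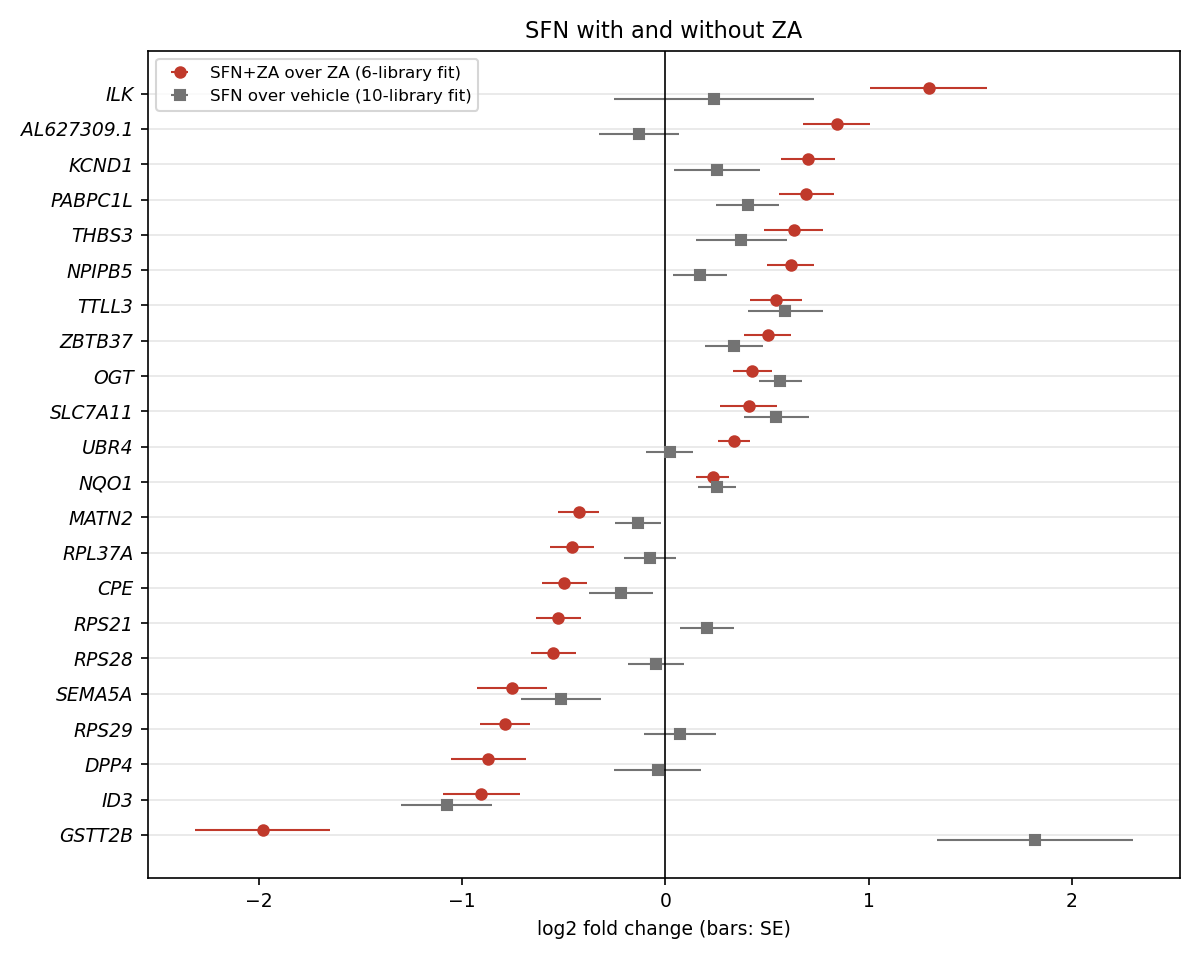
Log2 fold change (horizontal axis, bars: SE) of SFN+ZA over ZA (red circles, 6-library fit) and of SFN over vehicle (grey squares, 10-library fit) for the 20 genes of lowest p and for SLC7A11 and NQO1. SLC7A11, NQO1, OGT and ID3 have the same sign in both, while others such as RPS29 do not, and GSTT2B lies at -1.98 for SFN+ZA over ZA and 1.82 for SFN over vehicle.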

How the data were processed

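Total RNA from treated MDA-MB-231 cells was sequenced in 12 libraries, grouped by their treatment labels (4 groups of 3). The table that the authors deposited holds, for each gene, the raw count per library, an FPKM value, its length in bases and its position, and log2 fold changes, p-values and adjusted p-values of their own, made with a tool not given in the sources used here. Per the submitters' processing notes, the aligner was HISAT2 (no version) and the build GRCh37/hg19. No source used here names the read counter, the strand setting or the library kit.

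The 6 libraries' counts entered edgeR 4.0.16 (R 4.3.3): filterByExpr, TMM scaling, a robust quasi-likelihood F test, two-sided, with Benjamini-Hochberg adjustment over 14629 genes at 0.05. Values after ± are SE of log2 fold changes. The test of the difference between backgrounds used all 12 libraries. GC content came from GENCODE transcripts of GRCh38, joined by Ensembl identifier, with a value for 97.5% of genes, and its trend was removed per library with a lowess offset (span 0.3). Deposited FPKM values entered limma 3.58.1 as log2(FPKM + 0.1). DESeq2 1.42.0 was an alternative. The code was tested on simulated counts with a common spread for all genes and no GC trend. That simulation does not show how the tests perform on the present libraries.

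Named genes were those called, or else the 10 protein-coding genes per direction that averaged at least 1 CPM and had the lowest unadjusted p, the member of lowest p of each of 32 gene lists, and 11 fixed genes, among them NQO1, HMOX1, GCLM, TXNRD1, SRXN1, SLC7A11, FDPS, HMGCS1 and RHOB; some genes that the rule named are left out of the text and are not reported here. Further genes, among them IFIT2, CIITA, CEBPB, ATF4, DDIT3, IRF9, MT1X, MT-ND3, RNA28S5, RUSC1-AS1, AKR1C1, ABCC2 and ATM, were chosen after their values were seen. Members and lists were chosen with earlier results of these data known. Alternatives added after seeing the data were the GC offset with 10 libraries, the GC and length offset and the fit without the robust option. No 2 libraries of a group agreed within counting noise.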

Additional observations from a re-analysis of the deposited data

How the results depend on the processing

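The count of 0 genes higher and 0 lower held with DESeq2 size factors, 1 CPM in 3 libraries, a fold minimum of 1.2, 12 or 10 libraries in the fit, mitochondrial and ribosomal RNA genes left out (which leaves no median for the mitochondrial list), FPKM with limma and a fit without the robust option. DESeq2's Wald test called 5 higher and 8 lower, and the fit with no low-count filter 44 higher and 31 lower, 72 of these 75 among the genes that pass the filter. The GC offset called 4 higher, the GC and length offset 3 higher (ATM was lost), and the GC offset with 10 libraries 8 higher and 2 lower. Leaving out single libraries gave 0 higher and 0 to 1 lower, the 1 being MIR4426 without ZA 1. With the replicate block 0 passed (398 at an unadjusted p under 0.05), and 0 with the block and the GC offset together (lowest adjusted p 0.359), where SLC7A11, PABPC1L, OGT and ATM did not pass (adjusted p 0.429 each) at log2 fold changes of 0.48, 0.66, 0.46 and 0.39. Deviations of same-numbered libraries correlated at -0.367, -0.137 and -0.116, so the numbers were not taken to pair the samples. For the difference between backgrounds every alternative gave 0, the replicate block included.

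Genes near 0 turned sign, and the cause was not tested. FDPS was -0.0032 with the GC offset, -0.0038 with the block added and -0.0036 with 10 libraries. HMGCS1 was 0.0020, 0.0016 and 0.0031 under these 3, and 0.0099 with GC and length. SRXN1 was -0.0976 with the block, -0.1089 with block and GC offset and -0.0924 from FPKM. Leaving out single libraries gave -0.69 to 0.41 for SRXN1, -0.0721 to 0.0704 for FDPS, -0.13 to 0.0547 for HMGCS1, -0.0923 to 0.059 for RHOB and -0.0118 to 0.43 for HMOX1. With 3 libraries a group, the SE of a log2 fold change was 0.08 for NQO1 and 0.51 for SRXN1, and NQO1 at 0.23 and RPS29 at -0.79 did not pass.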
